A study of Rattus norvegicus with 6 samples.

Results

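Cyclic AMP is the messenger through which follicle-stimulating hormone and luteinizing hormone act on granulosa cells, and the genes that make it, break it down and respond to it were followed here in 3 RNA libraries of rat granulosa cells. The members were chosen by gene symbol: the adenylyl cyclases, every gene whose symbol begins with Pde and a family number, the catalytic and regulatory subunits of protein kinase A (PKA), and Creb1, Crem, Rapgef3, Rapgef4 and Rgs2. This rule found 45 of the 17525 genes in the table. They comprise 10 cyclases, 8 cAMP-specific phosphodiesterases (PDE families 4, 7 and 8), 8 dual phosphodiesterases that split both cAMP and cGMP (families 1, 2, 3, 10 and 11), 5 subunits of cGMP-specific phosphodiesterases (families 5, 6 and 9), 2 catalytic and 4 regulatory PKA subunits, and 5 effectors. The remaining 3, Pde12, Pde4dip and Pde6d, carry the name only. Pde12 removes 2′,5′-linked adenylates and poly(A), Pde4dip (myomegalin) is a scaffold of the Golgi and centrosome, and Pde6d is a chaperone of prenylated proteins.

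The cells were primary ovarian granulosa cells of SD rats aged 21 days that had received 60 IU of PMSG (equine serum gonadotropin, which stimulates follicle growth) 48 h before the ovaries were taken, after which the cells were dispersed and cultured. The libraries, ATR 1, ATR 2 and ATR 3, belong to a group titled ATR. The title of the series concerns atrazine, a triazine herbicide, but the labels do not spell out ATR, and the sources used here do not give the dose, the duration or whether animals or cultures were exposed. The 3 libraries of the group titled Control are not analysed here, so the values below are levels in ATR cells and the spread between ATR libraries, and no value is an effect of an exposure. Whether each library had its own animals or culture is not stated, and the spread between them could therefore be technical.

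Hormone binding to a receptor coupled to the stimulatory G protein Gs switches on adenylyl cyclases, which turn ATP into cAMP, and phosphodiesterases end the signal by opening the cyclic ring. PKA is held inactive by regulatory subunits that release the catalytic subunits when they bind cAMP. The freed kinase phosphorylates, among others, the transcription factor CREB, which binds the cAMP response element of target genes. EPAC proteins (Rapgef3 and Rapgef4) are a separate branch in which cAMP activates the small GTPase Rap.

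The libraries held 19020494, 18677212 and 19170552 assigned reads. A library in which a gene has 0 reads allows up to 3 reads, or 0.156 to 0.161 CPM (reads scaled to library size), by counting error alone. Of 9 granulosa markers, 7 reached a mean of 1 TPM, a level scaled for transcript length and library size. Their summed level ran from 2772 to 3177 TPM and was led by Gja1 at 1906 ± 114 TPM (SD, n = 3). The submitters identified the cells by staining for the FSH receptor, and its gene Fshr was detected at 7.38, 5.25 and 4.77 TPM. Cyp19a1 (aromatase) and Amh had at most 2.33 estimated reads in any library. The smooth muscle markers summed to 16152 to 17461 TPM with 6 of 6 at 1 TPM or more. Nearly all of that sum came from Tagln, with a mean of 10890 TPM, and Acta2, with 5496 TPM. The other smooth muscle markers averaged from 1.34 TPM (Notch3) to 183 TPM (Cnn1). The theca markers, 1 of 4 at that level, summed to 3.90 to 4.46 TPM. The surface epithelium markers summed to 2090 to 2250 TPM with 5 of 6 at that level. In bulk RNA, fewer cells of a type and less RNA per cell cannot be told apart.

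Of the 45 members, 29 (64.4%) reached a mean of 1 TPM, against 71.4% of all 17525 genes. There were 15 members at 10 TPM or more, and 2, Rgs2 and Prkar1a, above 100 TPM. The members' median was 3.29 TPM, against 10.1 TPM over all genes.

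Crem and Rgs2 are the members best known as targets of CREB as well as parts of the pathway: Crem has internal starts that yield the repressor ICER, and Rgs2 restrains G protein signalling. Their RefSeq promoters are shown because the level of each is described below. Windows of 250 bases before and 50 after a gene's start (assembly GRCr8) were matched by gene identifier to 33 members with 50 windows. No window was matched for Adcy3, Adcy6, Adcy8, Pde1b, Pde3b, Pde4c, Pde6c, Pde6d, Pde7a, Pde7b, Pde9a and Prkar2a. The sequences give the 250 bases before each start on the gene's strand, 5′ to 3′. Capitals mark the palindromic cAMP response element TGACGTCA and its shorter form, TGACG or, on the other strand, CGTCA.
Crem, start 1, chr17:58933816-58934065, plus strand: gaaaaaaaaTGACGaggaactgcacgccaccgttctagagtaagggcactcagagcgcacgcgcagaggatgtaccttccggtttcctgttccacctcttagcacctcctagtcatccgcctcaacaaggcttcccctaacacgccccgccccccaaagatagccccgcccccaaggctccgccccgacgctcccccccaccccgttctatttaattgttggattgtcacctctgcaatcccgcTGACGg
Crem, start 2, chr17:58984547-58984796, plus strand: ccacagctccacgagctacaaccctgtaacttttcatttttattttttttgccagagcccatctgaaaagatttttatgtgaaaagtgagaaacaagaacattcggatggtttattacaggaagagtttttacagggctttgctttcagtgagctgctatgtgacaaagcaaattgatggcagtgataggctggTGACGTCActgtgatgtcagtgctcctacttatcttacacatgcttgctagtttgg
Crem, start 3, chr17:58985240-58985489, plus strand: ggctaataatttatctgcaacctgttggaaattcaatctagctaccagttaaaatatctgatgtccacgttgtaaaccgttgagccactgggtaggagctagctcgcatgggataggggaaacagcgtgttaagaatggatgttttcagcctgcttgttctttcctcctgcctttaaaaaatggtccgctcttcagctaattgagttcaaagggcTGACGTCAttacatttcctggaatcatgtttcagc
Rgs2, chr13:58352667-58352916, minus strand: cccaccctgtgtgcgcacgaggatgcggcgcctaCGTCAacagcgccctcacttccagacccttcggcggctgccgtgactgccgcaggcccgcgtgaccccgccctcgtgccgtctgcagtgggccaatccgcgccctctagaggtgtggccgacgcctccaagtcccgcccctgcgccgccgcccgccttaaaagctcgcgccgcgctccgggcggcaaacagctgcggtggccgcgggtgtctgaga

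Crem was the only one of the 33 matched members whose windows held the palindrome. It lay 56 bases before start 2 and 35 bases before start 3, and once more at position 40 after start 3. By gene, 1 of 33 matched members (3.03%) held it, near the 2.85% of 13242 table genes with windows, and by window it was in 2 of 50, against 1.83% of all 33469. Start 1 of Crem held the shorter form alone, 241 and 6 bases before the start, and Rgs2 held it 216 bases before its start. Each palindrome contains the shorter form on both strands. The shorter form was in 15 of the 50 member windows and in 21.2% of all windows. By gene, it occurred in 11 of 22 matched members at 1 TPM or more and in none of the 11 below, against 33.6% of 9896 and 19.0% of 3346 table genes with windows at and below that level. A gene with several starts has more windows in which to hold it. These matches describe letters in a window and say nothing of binding.

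The windows also differed in CpG dinucleotides, which mark the promoters of many broadly expressed genes. Taking each gene's richest window, members at 1 TPM or more had a median of 26.5 CpGs (7 to 58), and members below had 18 (2 to 60). Over all table genes with a window the medians were 22 and 7. The ranges of the members overlapped almost completely: Adcy1, with the highest count of 60, averaged 0.103 TPM.

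The adenylyl cyclases were led by a single isoform. Adcy6, a membrane cyclase that Gs stimulates and calcium inhibits, had 73.8 TPM in ATR 1, 71.5 TPM in ATR 2 and 68.3 TPM in ATR 3, and values below follow this order of libraries. It held 73.6% ± 3.40 (SD, n = 3) of the TPM of all 10 cyclases, which summed to 95.2, 101 and 94.5 TPM. The calcium-inhibited pair of Adcy6 and its close relative Adcy5 together held 76.9% ± 3.27. Adcy5 itself stood at 3.00, 3.34 and 3.26 TPM, so Adcy6 exceeded it by 20.9 to 24.6 times. The estimated reads of both genes are not whole numbers, so reads may have been divided between similar genes and the smaller level is uncertain.

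Behind Adcy6 came a group of cyclases at similar levels. Adcy9, the isoform least sensitive to the drug forskolin, stood at 7.62, 7.88 and 6.58 TPM. Adcy7, which Gs stimulates together with G protein beta-gamma subunits, had 3.36, 8.20 and 6.78 TPM. Adcy3, the cyclase of olfactory neurons, which other tissues also express, had 5.30, 5.95 and 5.98 TPM. The ranges of Adcy9 and Adcy7 overlapped, as did those of Adcy7 and Adcy3, so the place of Adcy7 was not resolved by these libraries, while Adcy9 was above Adcy3 in each. The remaining beta-gamma-stimulated isoforms were lower. Adcy4 had 0.98, 2.48 and 1.58 TPM and Adcy2 0.84, 0.77 and 1.01 TPM. The calcium-stimulated neuronal isoforms stayed below 1 TPM in each library. Adcy8 had 3, 7 and 33 reads and Adcy1 6, 12 and 11 reads. The soluble cyclase Adcy10, which bicarbonate activates, had 11, 8 and 8 reads.

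Among the phosphodiesterases that split cAMP, high-affinity families 8 and 7 outweighed family 4. Pde8a stood at 61.0, 55.8 and 53.6 TPM and held 57.4% ± 1.14 of the TPM of the cAMP-specific enzymes. Pde7a stood at 36.02, 27.4 and 30.7 TPM and held 31.6% ± 2.64. In each library Pde8a was above Pde7a, by 1.69 to 2.04 times. Pde8 and Pde7 enzymes bind cAMP tightly and resist rolipram, the drug that defines family 4.

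Family 4, whose Pde4d is needed for normal ovulation in mice, held 10.2% ± 2.03 of the cAMP-specific TPM. Pde4a had 2.68, 3.79 and 3.45 TPM, Pde4d had 2.82, 3.14 and 3.92 TPM, and Pde4b had 2.73, 3.96 and 2.90 TPM. These ranges overlapped, so no order could be read among them. The summed TPM of the 4 family members was 0.136 to 0.198 of that of Pde8a. Pde4c had 1, 2 and 4 reads, and Pde7b, the relative of Pde7a, had 38, 44 and 30 reads, or 0.903 ± 0.295 TPM. Pde8b, the relative of Pde8a, had 1 read in ATR 2 and 0 in the others. Each of the families 8 and 7 was thus represented almost wholly by its A gene.

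The dual phosphodiesterases summed to 26.3 ± 2.05 TPM, against 99.1 ± 6.23 TPM for the cAMP-specific ones (SD, n = 3). Pde10a, best known from striatal neurons, led with 12.6, 10.9 and 11.2 TPM. Pde1a, which calcium and calmodulin activate, followed with 11.02, 9.72 and 8.88 TPM. The ranges of these leaders overlapped. Pde3b, which cGMP inhibits, had 1.27, 1.91 and 1.44 TPM and Pde1b 1.05, 1.76 and 0.78 TPM. Below 1 TPM on average were Pde2a (29, 43 and 25 reads), Pde1c (41, 35 and 27 reads), Pde3a and Pde11a (2, 4 and 4 reads). Pde3a, which in mouse oocytes lowers cAMP and so lets meiosis resume, had 7, 41 and 8.96 estimated reads. Oocyte markers, 1 of 5 found at 1 TPM, summed to 1.48 to 1.74 TPM. Zp2 had 16, 23 and 22 reads, and Gdf9 had 1 read in ATR 2 and 0 in the others.

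Only one of the cGMP-specific subunits was clearly present. Pde5a, the target of sildenafil, had 3.62, 3.71 and 2.80 TPM. Pde9a had 1, 2 and 2 reads. The photoreceptor subunits Pde6a, Pde6c and Pde6h had at most 2 reads in any library. Photoreceptor markers were also low, at 1.06 to 1.34 TPM summed over the 3 found. The genes that carry the name only were higher, with Pde6d at 59.5 ± 3.73, Pde4dip at 20.7 ± 0.774 and Pde12 at 11.9 ± 0.761 TPM (SD, n = 3), and a count of Pde symbols by level would thus mix them with the enzymes.

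**Figure D1:**
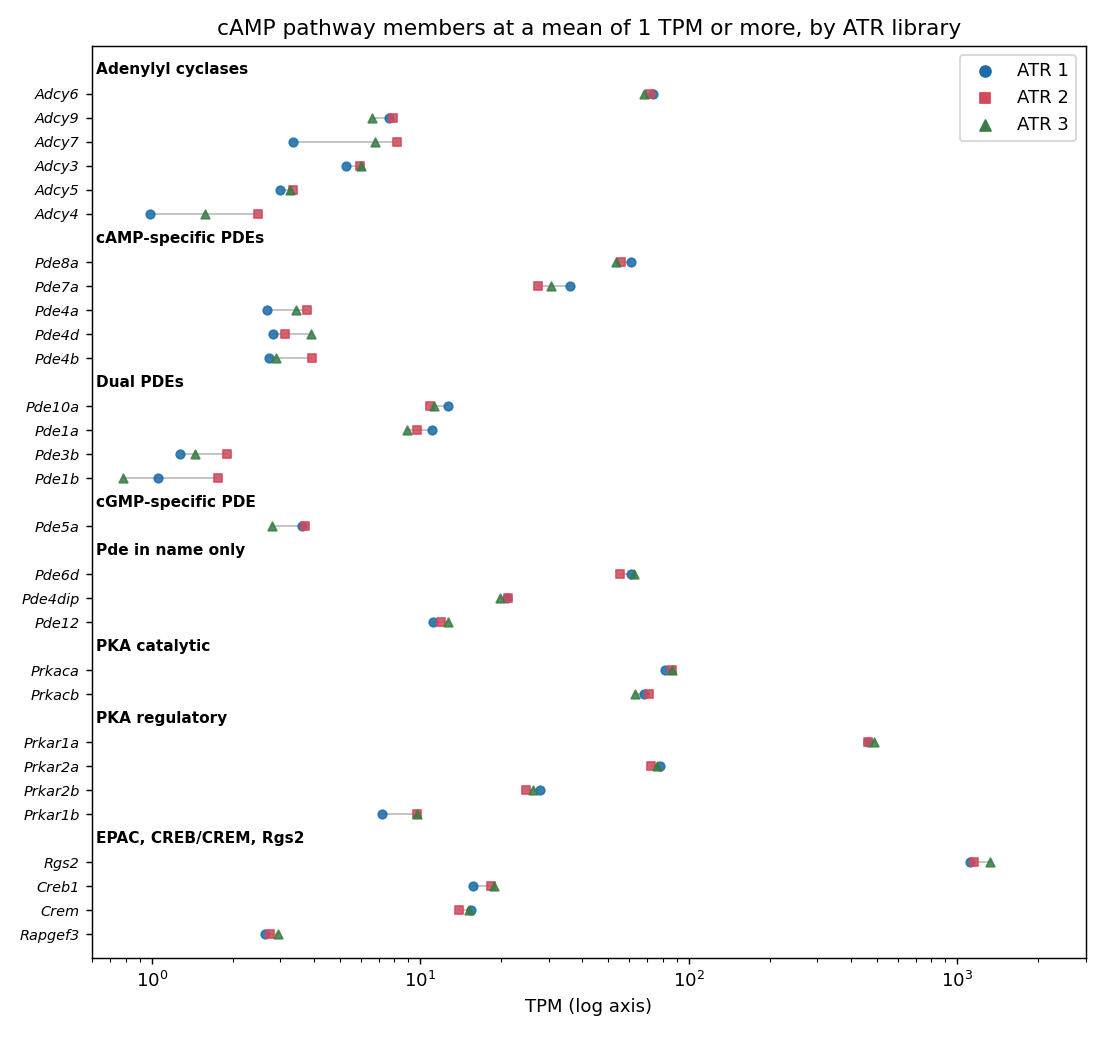
TPM on a log axis of the 29 members with a mean of 1 TPM or more, by family; each symbol is 1 ATR library and the grey line spans the 3 libraries. Adcy6, Pde8a, Prkar1a and Rgs2 stand apart from the next member of their group, while Adcy7 and Adcy4 have the widest spans among the cyclases.

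PKA messages were more abundant than those of the cyclases and phosphodiesterases. The catalytic subunits summed to 149, 158 and 149 TPM. Prkaca (C alpha) had 81.5, 86.7 and 86.6 TPM and Prkacb (C beta) had 67.9, 70.8 and 62.9 TPM. Their ranges did not overlap, and Prkaca exceeded Prkacb by 1.20 to 1.38 times. The estimated reads of Prkacb are not whole, so some of its reads may be shared with another gene. By reads, which are not scaled for length, Prkaca made up 45.4% of the pair in place of 55.8%.

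The regulatory subunits summed to 576, 572 and 601 TPM, or 3.63 to 4.02 times the catalytic sum. Prkar1a (RI alpha) dominated with 463, 465 and 489 TPM and held 81.0% ± 0.609 of the regulatory TPM (SD, n = 3). Prkar2a (RII alpha) had 78.2, 72.1 and 75.9 TPM. Prkar2b (RII beta), the subunit that gonadotropins raise in rat granulosa cells, had 27.9, 24.7 and 26.3 TPM. Prkar1b (RI beta), described mainly in neurons, had 7.19, 9.71 and 9.70 TPM. No ranges overlapped between neighbours in this order. Type I subunits exceeded type II by 4.43 to 4.91 times in TPM. Type II subunits, which anchor most tightly to A-kinase anchoring proteins, summed to 0.614 to 0.711 of the catalytic TPM. These are ratios of messages and not of proteins.

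**Figure D2:**
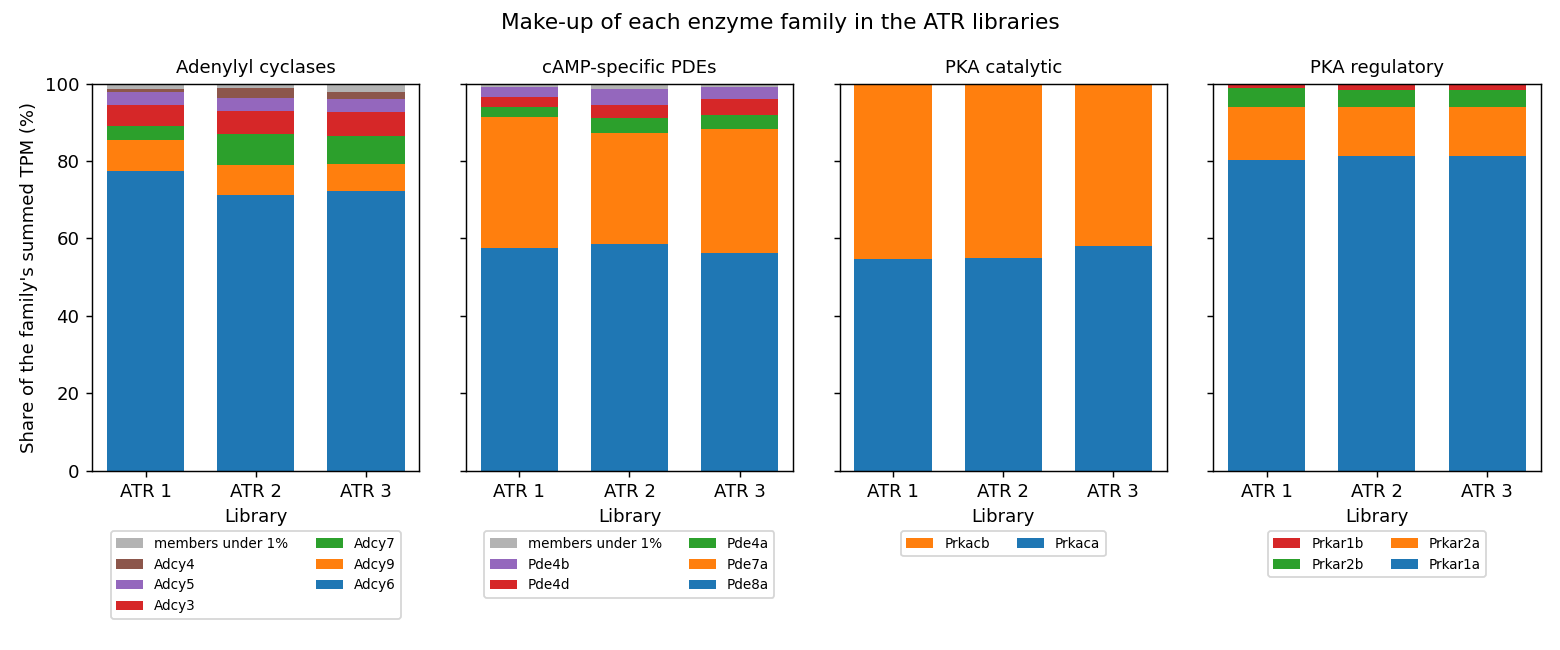
Share of each family's summed TPM held by each gene, in percent, with 1 bar per ATR library; members with a mean share under 1% are pooled. Adcy6 holds 71.1% to 77.5% of the cyclase TPM and Prkar1a 80.3% to 81.4% of the regulatory TPM, while Pde7a holds 28.7% to 33.9% of the cAMP-specific TPM.

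Rgs2 was the most abundant member, at 1116, 1152 and 1328 TPM, and ranked 121 among the 17525 genes. Its protein speeds the shut-off of the G protein Gq and can also inhibit adenylyl cyclases. It stood at 18.4 to 21.9 times Rgs19, the highest of 14 other RGS genes found, of which 5 reached 1 TPM. The transcription factors were at modest levels. Creb1 had 15.6, 18.3 and 18.8 TPM and Crem 15.4, 13.96 and 15.1 TPM. The table gives 1 value for the gene, so ICER cannot be separated from longer CREM forms. Of the EPAC genes, Rapgef3 had 2.63, 2.74 and 2.94 TPM and Rapgef4 0.74, 0.79 and 0.80 TPM, a ratio of 3.47 to 3.68.

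The read counts were then asked which members differed between the libraries by more than counting noise, with a chi-square test per gene across all genes with at least 30 reads and Benjamini-Hochberg adjustment. Such a test compares these libraries and not conditions. Of 36 members tested, 9 passed an adjusted p of 0.05, beside 23.2% of all 13309 genes tested, so the share among members was near that of the table. The other 9 members had too few reads. The common biological coefficient of variation was 8.23% by edgeR, over the 12828 genes kept by its low-count filter. The median SD of log2(CPM + 0.5) was 0.13 over 35 members at 1 CPM or more and 0.08 over all 12591 genes at that level. Members had fewer reads, with a median of 618 among those tested against 1368 over all genes tested. Counting noise alone is larger at fewer reads, so these SDs are not compared at equal depth. Of the 35 members, 16 were lowest in ATR 1, or 45.7%, against 35.1% of the 12591 genes.

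Adcy7 had the strongest signal among the cyclases. Its estimated reads were 181, 428 and 359 in ATR 1, ATR 2 and ATR 3. ATR 1 lay low and the other libraries were close to each other, with a read rate in ATR 1 of 0.456 times that of the others pooled (exact 95% interval 0.386 to 0.537, counting error only). The adjusted p of the chi-square test was 9.87e-22, and it was 0.0586 without ATR 1. Adcy4, from the same subclass, had 29, 74 and 48 reads and was also lowest in ATR 1, at 0.471 times the others (0.303 to 0.711, adjusted p = 0.000255). Its adjusted p was 0.0963 without ATR 1 and 0.143 without ATR 2. Prkar1b was likewise lowest in ATR 1, with 149, 202 and 206 reads and a ratio of 0.724 (0.596 to 0.876, adjusted p = 0.0179). Without ATR 1 its adjusted p was 0.987.

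The granulosa markers summed to 3177, 2876 and 2772 TPM, highest in ATR 1, and 6 of 7 tested passed the chi-square test. Gja1, the largest part of the sum, had 2036, 1863 and 1821 TPM. Inha had 522, 427 and 378 TPM and Foxl2 63.6, 53.8 and 48.0 TPM, and Gata4 and Fshr were also highest in ATR 1. Inhba, which passed, had 282, 284 and 280 TPM, highest in ATR 2. Nr5a1, which did not pass, had 60.65, 62.67 and 59.25 TPM, also highest in ATR 2. Leukocyte markers, 3 of 5 of which reached 1 TPM, summed to 92.0, 116 and 115 TPM, and 1 of 5 tested, Lyz2, passed. Ptprc stayed below 1 TPM in each library and was lowest in ATR 2. Endothelial markers, 1 of 4 at 1 TPM, summed to 4.40, 3.8 and 3.98 TPM, and none of the 2 tested passed. Pecam1 and Cdh5 had at most 3 reads in any library. A list of 8 stromal fibroblast markers, chosen after values of these data were known, reached 1 TPM in 8 of 8 cases and summed to 742, 774 and 780 TPM, and 7 of the 8 passed. Within it Thy1 had 23.2, 104 and 82.7 TPM, Prrx1 12.03, 47.0 and 29.2 TPM and Pdgfra 1.36, 5.27 and 3.67 TPM. Like Adcy7 and Adcy4, these genes were highest in ATR 2 and lowest in ATR 1. The other markers of the list followed other orders. Col14a1 had 333, 267 and 305 TPM, Ogn 204, 181 and 179 TPM and Dcn 25.3, 22.8 and 21.2 TPM, highest in ATR 1. Lum had 14.8, 17.7 and 22.04 TPM and Gsn 129, 129 and 137 TPM, highest in ATR 3. The part of these markers in the values of Adcy7, Adcy4 and Prkar1b was not tested.

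The abundant phosphodiesterases went the other way and by less. Pde7a had 1260, 939 and 1097 reads, highest in ATR 1 and lowest in ATR 2. The rate in ATR 2 was 0.810 times that of the others (0.75 to 0.874, adjusted p = 1.44e-08), and the call held with each library left out in turn. Pde8a had 1674, 1517 and 1496 reads, with a rate in ATR 1 of 1.10 times the others (1.04 to 1.17, adjusted p = 0.0245). Its adjusted p was 0.705 without ATR 1 and 0.0989 without ATR 3.

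Rgs2 had 6441, 6685 and 7873 reads and was highest in ATR 3, at 1.19 times the others (1.16 to 1.22, adjusted p = 1.62e-33). The call held with each library left out, with an adjusted p of 0.0155 without ATR 3. Prkar1a had 9653, 9683 and 10065 reads, a rate in ATR 3 of 1.03 times the others (1.01 to 1.06, adjusted p = 0.048). With DESeq2 size factors its adjusted p was 0.0569, and with unscaled library totals 0.162. It was 0.347 without ATR 1 and 0.403 without ATR 3. Of members with over 3704 reads in all, 3 of 8 passed, beside 43.6% of all genes at that depth.

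The remaining calls were genes with few reads in a single high library. Pde3a was highest in ATR 2, at 5.21 times the others (2.86 to 9.94, adjusted p = 5.26e-08). The smooth muscle markers summed to 17461, 16307 and 16152 TPM, highest in ATR 1, as were Tagln, Acta2 and Myh11 among the 6. The others were highest in ATR 2. Des had 7.22, 20.4 and 7.69 TPM, Cnn1 176, 203 and 172 TPM and Notch3 1.24, 1.42 and 1.37 TPM. The part of smooth muscle cells in the value of Pde3a was not tested. Adcy8 was highest in ATR 3, at 6.55 times the others (3.15 to 14.9, adjusted p = 1.75e-07). Both genes stayed below 1 TPM in every library, and Pde3a without ATR 2 and Adcy8 without ATR 3 had too few reads for the test.

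**Figure D3:**
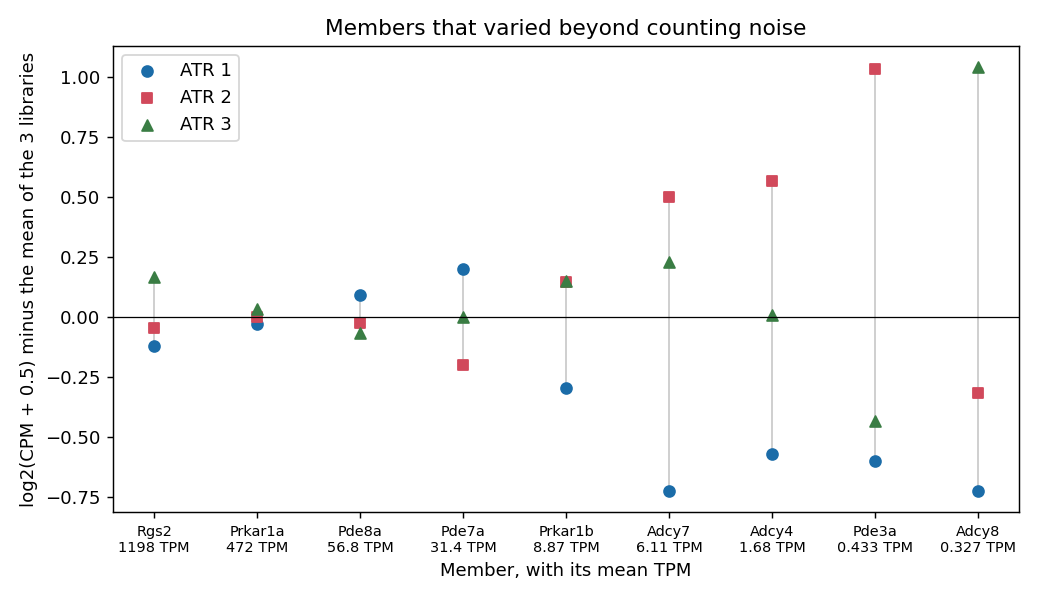
Deviation of log2(CPM + 0.5) in each ATR library from the mean of the 3 libraries, for the 9 members that passed the chi-square test, ordered by mean TPM. Deviations are small for the abundant Rgs2, Prkar1a and Pde8a, and ATR 1 is the lowest library for every gene but Pde8a and Pde7a.

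The remaining 27 members tested did not pass. Among them were Adcy6 (adjusted p = 0.187), Prkaca (0.660), Prkacb (0.442), Prkar2a (0.459), Prkar2b (0.330), Pde10a (0.395), Creb1 (0.554) and Crem (0.689), by the same chi-square test. Adcy6 had an SD of 0.04 and Prkaca one of 0.03 on the log2 scale. A p above the threshold does not show that the levels were equal.

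TPM and reads did not tell the same story for every member. The number of reads behind 1 TPM follows the length of the transcripts the authors' software assigned, and for most genes it is the same in each library once depth is removed. Of the 29 members at 1 TPM or more, 4 had a coefficient of variation of this number over 5%, beside 3.91% of 12453 genes at that level. Creb1 had the largest, at 14.3%. Its reads were 706, 646 and 699, highest in ATR 1, while its TPM was lowest there, so the direction in which ATR 1 differs depends on the unit. Pde1b followed at 14.1%, Pde4d at 9.45% and Pde5a at 5.31%. Pde4d spans several starts and encodes many forms of the enzyme. The table gives no isoform, and the cause of these differences was not tested.

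**Figure D4:**
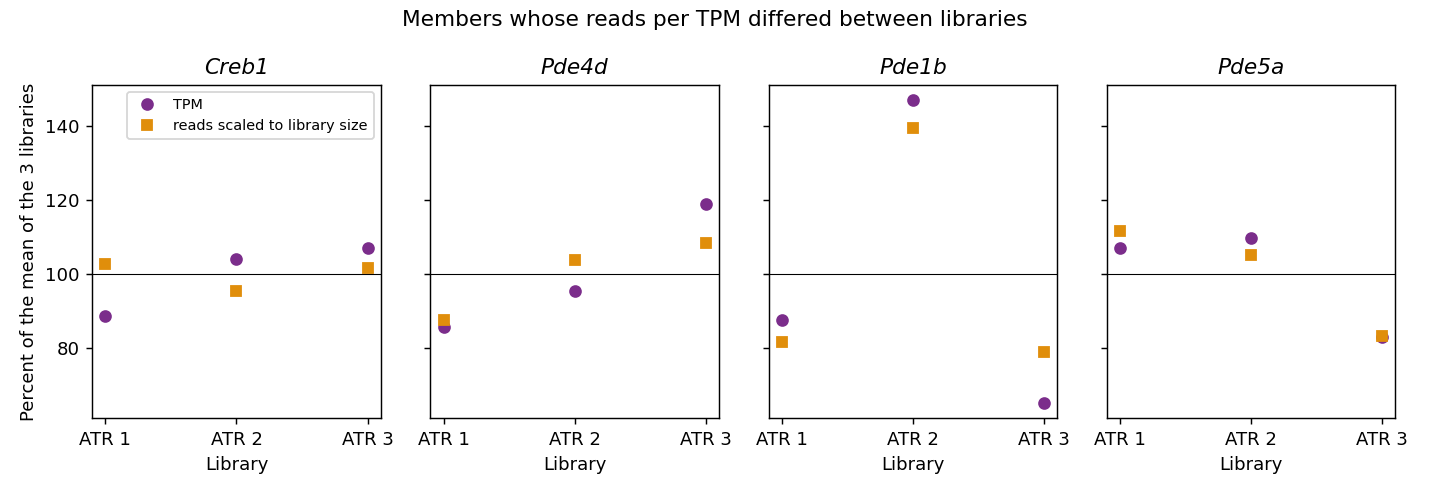
TPM and reads scaled to library size, each as a percent of its mean over the 3 ATR libraries, for the 4 members whose reads per TPM varied by over 5%. In ATR 1 the symbols for Creb1 lie on opposite sides of 100%, and for Pde5a the symbols nearly coincide in ATR 3.

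Around the members, G protein subunits, anchoring proteins and CREB relatives mostly reached a mean of 1 TPM, and receptors mostly did not. Of 148 entries in 8 lists of neighbouring genes, 134 were found and 89 reached 1 TPM, where 71.4% of all genes did. Of 101 tested, 34 passed the chi-square threshold, beside 23.2% of all genes tested. Among 27 receptors found that couple to Gs, 9 reached 1 TPM and none reached 100 TPM. Among these 9, Fshr stood at 5.80 ± 1.39 TPM and the prostacyclin receptor Ptgir at 4.10 ± 2.00 TPM (SD, n = 3). Lhcgr averaged 0.157 TPM. Of 15 G protein subunits 14 reached 1 TPM, and Gnas, which encodes the Gs alpha subunit, stood at 570, 624 and 597 TPM. Gnas exceeded the sum of all cyclases by 5.98 to 6.31 times. The inhibitory Gnai2 followed Gnb1 (534 TPM) at 531 TPM.

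Some partners of PKA exceeded its catalytic subunits. Pkig, a PKA inhibitor, stood at 367 ± 14.7 TPM, or 2.33 to 2.56 times the sum of the catalytic subunits, and Pkia at 30.01 ± 2.53 TPM, whereas Pkib stayed below 1 TPM. Of 15 A-kinase anchoring proteins 12 reached 1 TPM. They were led by Akap5 at 468 ± 38.6, Akap12 at 345 ± 30.5 and Akap2 at 288 ± 2.49 TPM (SD, n = 3). Akap5 exceeded Prkar2a, whose protein it anchors, by 5.91 to 6.61 times. Of 13 CREB relatives, coactivators and Sik kinases all reached 1 TPM, led by Creb3 at 416 ± 21.6 TPM. Of 23 cAMP response genes 19 did, led by Inha at 443 ± 73.0 TPM. Among 24 genes of cyclic nucleotide channels, export, cGMP synthesis and Rap, 15 reached 1 TPM. Rap1b, a GTPase that EPAC activates, stood at 400.0 ± 27.7 TPM.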

How the data were processed

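Poly(A) RNA of 3 ATR libraries was read as pairs on an MGI2000, per the labels' protocols, with no strand-marking step described, so reads of overlapping antisense genes cannot be told apart. Tools named in the submitters' processing notes are StringTie 2.1.5, HISAT2 2.2.1 and fastp 0.20.1, with the builds Rnor_6.0 and GRCm38, all without their roles. The authors deposited a TPM value and an estimated count of reads for each gene and library, per the file headers. In each library 19.0% to 19.2% of the estimated counts lie more than 0.001 from a whole number, among them counts of 8 members. They were rounded.

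Libraries were scaled by TMM in edgeR 4.0.16 (R 4.3.3; filterByExpr minimum count 10) and edgeR also gave the common dispersion. The chi-square test set each gene's reads against scaled library sizes, for genes with at least 30 reads. On simulated counts it recovered 75% of 1.5-fold and 89% of 2-fold changes placed in a single library. It made 10 false calls among 13112 unchanged genes. The simulation held counting noise only, so it does not cover other spread between libraries. Read ratios carry Clopper-Pearson 95% intervals. Duplicated reads are counted as independent, so intervals cover counting error only. DESeq2 1.42.0 gave alternative size factors. Python 3.11.15, numpy 2.4.6, pandas 2.3.3, scipy 1.17.1 and matplotlib 3.10.9 were used. Reads per TPM were divided by each library's median over genes at 5 TPM or more.

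Every member was accounted for. Values in each library were given for the leading members of each family and for members that passed the test. Genes with a Pde name only have a mean and SD, and Pde6 subunits an upper value. Of other lists the 3 most abundant genes, the called ones with the 2 largest SDs, and Fshr, Lhcgr and Gnas could be named. The values of 1 receptor gene are not reported here. Adjusted p-values over all genes tested were read at 0.05. Alternatives changed the scaling, the read and TPM minimums, whole counts, the unit and the libraries used. The members and lists were chosen with earlier results of these data known. Promoters are RefSeq windows of GRCr8, a build that differs from Rnor_6.0, and no coordinates of the deposited table were used. The comparison of ATR with Control was not run.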

Additional observations from a re-analysis of the deposited data

How the results depend on the processing

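No paired analysis was possible because a single group, ATR, was analysed. The alternatives planned for ATR against Control (DESeq2, the replicate block, no low-count filter, leaving out a library) were not run for the same reason. The count of members at 1 TPM or more was 29 and lay between 20 (a mean of at least 5 TPM) and 34 (at least 0.5 TPM) under the other limits. The count of members varying beyond counting noise was 9. It was 6 to 8 under the other scalings, read minimums and the limit to whole counts, and 4 (without ATR 1) to 8 with a library left out. Without ATR 1, Prkar1b, Prkar1a, Pde8a, Adcy4 and Adcy7 no longer passed. That setting tests 2 libraries, and 11.9% of all genes passed in place of 23.2%. Adcy7 and Pde3a are not whole counts and so left the test under that limit. Reads in place of TPM, which drop the scaling for length, gave Pde8a 51.7% of the cAMP-specific enzymes, Pde10a 49.3% of the dual ones, Prkaca 45.4% of the catalytic and Prkar1a 74.0% of the regulatory subunits, in place of 57.4%, 44.1%, 55.8% and 81.0%. Chosen after seeing the data, a limit of 2% on the variation of reads per TPM gave 9 members and one of 10% gave 2, in place of 4 at 5%. The common biological coefficient of variation was 6.91% to 9.69% with a library left out, and 9.25% without the low-count filter. Low counts leave Adcy1, Pde4c and Pde9a without a rank at this depth.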

Other observations

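Within the neighbouring lists, several genes were highest in ATR 2. The orphan nuclear receptors Nr4a1 and Nr4a3, early targets of cAMP and of other stimuli, had 7.99, 20.9 and 8.86 TPM and 0.68, 3.39 and 0.97 TPM in ATR 1, ATR 2 and ATR 3. Both passed the chi-square test, with adjusted p-values of 3.36e-40 and 1.97e-23. The adenosine receptor Adora2b had 9, 42 and 18 reads (adjusted p = 2.65e-05) and Ptgir 25, 73 and 50 reads (adjusted p = 6.21e-05). Crem was lowest in ATR 2 in TPM, at 13.96, and did not pass the same test (adjusted p = 0.689). Fshr was highest in ATR 1, with 155, 111 and 103 reads (adjusted p = 0.0128). Among RGS genes, Rgs16 had 58, 111 and 128 reads (adjusted p = 1.50e-05) and Rgs17 6, 13 and 32 reads (adjusted p = 0.000257), both highest in ATR 3 like Rgs2. These genes thus followed several orders of libraries.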
